A study of Anser cygnoides with 6 samples.

Results

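The receptors and ligands described here are 10 genes of the platelet-derived growth factor (PDGF) and fibroblast growth factor (FGF) families, read in goose ovary. They were taken by gene name from a table of 14696 genes. All 10 were found, 5 under the symbol in the deposited table and 5 through the goose gene table of RefSeq. The 5 receptors are PDGFRA, PDGFRB, FGFR1, FGFR2 and FGFR3, and the 5 ligands are PDGFA, PDGFB, PDGFC, PDGFD and FGF2.

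RNA came from the ovary of the swan goose, Anser cygnoides, in 3 libraries of a reproductive group and 3 libraries of a broody group, named for the stages given in the labels. Per the labels' protocols, every goose was kept until 40 weeks old in a room shielded from daylight on a cycle of 11 h light to 13 h dark, and birds of the broody group also underwent forced moulting and short illumination. Any effect of the broody stage cannot be told apart from that of the moulting treatment, or of light where it was not the same in both groups. Each sample label says ovary, although the series' design text says oviduct. The part of the ovary is not stated. Nothing says that replicates are different birds, so the p-values reflect variation among these libraries, which may be technical.

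PDGFs and FGFs are secreted proteins that bind receptor tyrosine kinases, which pair up at the cell surface, phosphorylate each other and pass the signal through adaptor proteins to RAS, the ERK kinases and other relays. In mammals PDGFRA and PDGFRB are best known from fibroblasts, pericytes and smooth muscle, cells that make up stroma and vessel walls. The FGF receptors are used more widely, in epithelium as well as mesenchyme, and FGFs need heparan sulfate chains to bind them firmly. In the mammalian ovary both families take part in signalling between granulosa cells, theca cells and the oocyte.

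Levels are FPKM, that is fragments mapped to a transcript divided by its length and by the size of the library, summed over the transcripts of a gene. Differences are broody minus reproductive on the log2(FPKM + 1) scale, with their standard error (SE), and understate the change of genes at low FPKM. They were fitted with limma across 11377 genes, and a gene was called when its Benjamini-Hochberg adjusted p over all of these was under 0.05. The tissue label was checked first. The oocyte genes ZP2, DAZL and GDF9 reached 459 to 560, 298 to 347 and 156 to 218 FPKM in broody libraries, and the granulosa genes AMH and FOXL2 202 to 295 and 66.4 to 86.2 FPKM. In reproductive libraries ZP2, DAZL and GDF9 stood at 47.7 to 238, 32.2 to 183 and 16.4 to 93.4 FPKM, each lowest in reproductive 2. Of 15 oviduct genes looked for, 2 were found by name. TF, ovotransferrin, stood at 0.969 to 4.79 FPKM in 5 libraries and at 71.1 in reproductive 2. LYZ, lysozyme, stood at 0.216 to 0.522 FPKM in the same 5 libraries and at 1.40 in reproductive 2. Reproductive 2 also had the highest level of 7 of the 10 members within its group and the highest summed smooth muscle and pericyte markers, 7161 FPKM, and the part of its makeup in the results was not tested.

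Of the 10 PDGF and FGF genes, 3 were called lower in broody libraries and 7 were not called in either direction. Genes of the FGF family outside these 10, described below, were called in both directions. PDGFD, PDGFC and FGFR3 fell, which is 3 of 10 members against a background of 12.0% of all tested genes called lower. None of the 10 was called higher, against 29.9% of all tested genes, and none had an unadjusted p under 0.05 in that direction. The difference was negative for 8 of 10 members and for 35.6% of tested genes. The median difference was -0.42 over the members and 0.23 over all tested genes. The groups did not overlap, with broody libraries lower, for 3 members, against 18.2% of tested genes, and with broody libraries higher for 0 members, against 41.3%. All 10 passed the filter on low FPKM. Since the members and all gene lists were chosen with earlier results of these data known, the background shares here and below are descriptions. They do not test the members or the lists.

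**Figure D1:**
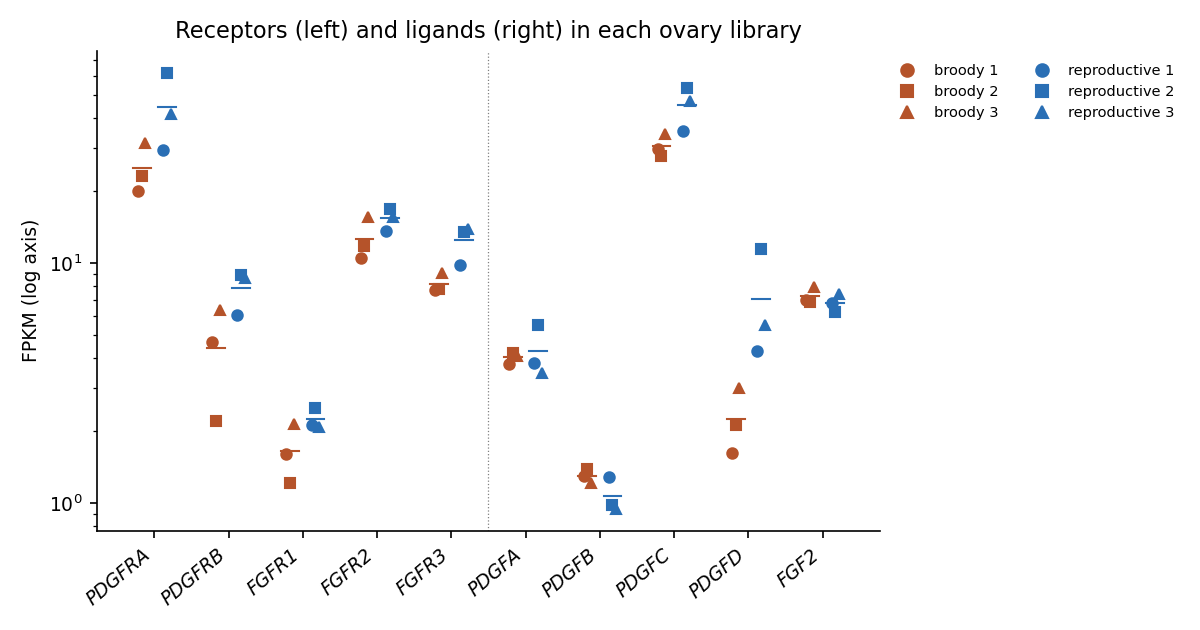
FPKM on a log axis of the 5 receptors and the 5 ligands in each library, with symbols for single libraries and short lines for group means (n = 3). PDGFC and PDGFRA are the most abundant, PDGFB and FGFR1 the least, and the 3 broody points lie below all reproductive points for PDGFC, PDGFD and FGFR3.

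PDGFRA, the receptor for the A, B and C chains in mammals, was the most abundant of the receptors. It stood at 19.9, 22.9 and 31.7 FPKM in broody 1 to 3 and at 29.6, 62.0 and 41.8 FPKM in reproductive 1 to 3. Broody 3 lay above reproductive 1, so the groups overlapped, and reproductive 2 was far above the rest. The means were 24.8 ± 6.17 and 44.5 ± 16.4 FPKM (SD, n = 3), a difference of -0.78 ± 0.28 (SE) with a 95% interval of -1.44 to -0.12 and an adjusted p of 0.0593 by limma. The difference did not pass the threshold over all genes. It passed with median-ratio scaling (-1.01, adjusted p = 0.0389), with quantile normalization (-1.01, adjusted p = 0.0373) and without reproductive 1 (-1.03, adjusted p = 0.0394). Without reproductive 2 it was -0.51 (adjusted p = 0.127), and no other library left out gave a larger move toward 0.

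PDGFRB, the receptor for the B and D chains and a marker of pericytes in mammals, was lower in level but had the same difference. It stood at 4.70, 2.20 and 6.39 FPKM in broody 1 to 3 and at 6.09, 8.90 and 8.64 FPKM in reproductive 1 to 3. Broody 2 was the lowest and broody 3 reached into the reproductive range. The means were 4.43 ± 2.11 and 7.88 ± 1.56 FPKM (SD, n = 3), and the difference of -0.78 ± 0.31 (SE; 95% interval -1.51 to -0.045) had an adjusted p of 0.0791 by limma. It passed with median-ratio scaling (-0.98, adjusted p = 0.0457), with quantile normalization (-0.93, adjusted p = 0.0474) and without broody 3 (-1.04, adjusted p = 0.0478). Without broody 2, the lowest library, it was -0.44 (adjusted p = 0.198).

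FGFR3 was the one receptor past the threshold, with a smaller difference than that of PDGFRA or PDGFRB. It stood at 7.71, 7.77 and 9.06 FPKM in broody 1 to 3 and at 9.84, 13.4 and 13.9 FPKM in reproductive 1 to 3. All broody libraries lay below all reproductive libraries, with broody 3 and reproductive 1 the closest. The means were 8.18 ± 0.762 and 12.4 ± 2.23 FPKM (SD, n = 3), and the difference was -0.53 ± 0.17 (SE, adjusted p = 0.0417 by limma). The call ended with no filter (adjusted p = 0.0597), with the replicate number as a block (0.0637), with the largest transcript only (0.514) and, of the libraries left out in turn, without any but reproductive 1 (0.0652 to 0.131).

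FGFR2, the receptor whose splice forms separate epithelial from mesenchymal ligands in mammals, was the most abundant FGF receptor. It stood at 10.5, 11.8 and 15.5 FPKM in broody 1 to 3 and at 13.6, 16.8 and 15.6 FPKM in reproductive 1 to 3. The groups overlapped through broody 3, and the difference of -0.28 ± 0.18 (SE; 95% interval -0.69 to 0.13) did not pass (adjusted p = 0.226 by limma) and was -0.16 without broody 1. FGFR1, the widely used mesenchymal receptor, was the least abundant receptor, with 1.60, 1.21 and 2.14 FPKM in broody 1 to 3 and 2.12, 2.50 and 2.08 FPKM in reproductive 1 to 3. Broody 3 again reached the reproductive range, and the difference was -0.30 ± 0.18 (SE; 95% interval -0.72 to 0.12, adjusted p = 0.200 by limma), and -0.18 without broody 2.

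PDGFD, the ligand of PDGFRB that is secreted as an inactive precursor, had the largest difference of the 10 genes. It stood at 1.61, 2.11 and 3.0 FPKM in broody 1 to 3 and at 4.30, 11.4 and 5.53 FPKM in reproductive 1 to 3. The groups did not overlap, and reproductive 2 stood well above all other libraries. The reproductive mean of 7.09 ± 3.81 FPKM (SD, n = 3) was 3.16 times the broody mean of 2.24 ± 0.701 FPKM, and the difference was -1.24 ± 0.33 (SE, adjusted p = 0.0245 by limma). Of all tested genes, 3.32% had a lower difference. Without reproductive 2 the difference was -0.88 (adjusted p = 0.0291), and the call ended without broody 1 (adjusted p = 0.0841) and without broody 2 (0.0772), where a single gene of all those tested still passed.

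PDGFC, a ligand of PDGFRA that also needs to be cut to act, was the most abundant of the 10 genes by mean. It stood at 29.9, 27.9 and 34.3 FPKM in broody 1 to 3 and at 35.5, 53.6 and 47.4 FPKM in reproductive 1 to 3. The groups did not overlap, though broody 3 and reproductive 1 lay close together. The means were 30.7 ± 3.27 and 45.5 ± 9.16 FPKM (SD, n = 3), a difference of -0.54 ± 0.18 (SE, adjusted p = 0.0459 by limma). This call lies near the threshold and ended under 9 of the 15 alternatives, among them no filter (adjusted p = 0.0620) and without reproductive 2 (0.0960).

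PDGFA and PDGFB, the classical PDGF chains, did not pass the threshold, and their differences were not tested against those of PDGFC and PDGFD. PDGFA stood at 3.79, 4.23 and 4.09 FPKM in broody 1 to 3 and at 3.83, 5.52 and 3.48 FPKM in reproductive 1 to 3, a difference of -0.048 ± 0.18 (SE; 95% interval -0.47 to 0.38, adjusted p = 0.842 by limma). PDGFB, which in mammals is made by endothelium and draws pericytes to vessels, was the lowest of the 10 genes. It stood at 1.30, 1.38 and 1.21 FPKM in broody 1 to 3 and at 1.29, 0.985 and 0.945 FPKM in reproductive 1 to 3, a difference of 0.15 ± 0.15 (SE; 95% interval -0.20 to 0.50, adjusted p = 0.426 by limma). Both ranges overlapped between the groups, and at about 1 FPKM the log2(FPKM + 1) scale understates a change in PDGFB.

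FGF2, basic FGF, a ligand of several FGF receptors that is stored on heparan sulfate, did not pass either. It stood at 6.99, 6.89 and 7.95 FPKM in broody 1 to 3 and at 6.83, 6.27 and 7.43 FPKM in reproductive 1 to 3. The groups overlapped, and the difference was 0.078 ± 0.14 (SE; 95% interval -0.26 to 0.41, adjusted p = 0.680 by limma). Its sign turned with median-ratio scaling (-0.13) and quantile normalization (-0.072). Scaling mattered for the whole family, since median-ratio scaling moved the median difference of all tested genes from 0.23 to 0.02. With it 5 members were called lower, PDGFRA and PDGFRB besides the 3 above, and 0 higher. Of all 11377 tested genes, 2076 were then called lower and 1988 higher.

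**Figure D2:**
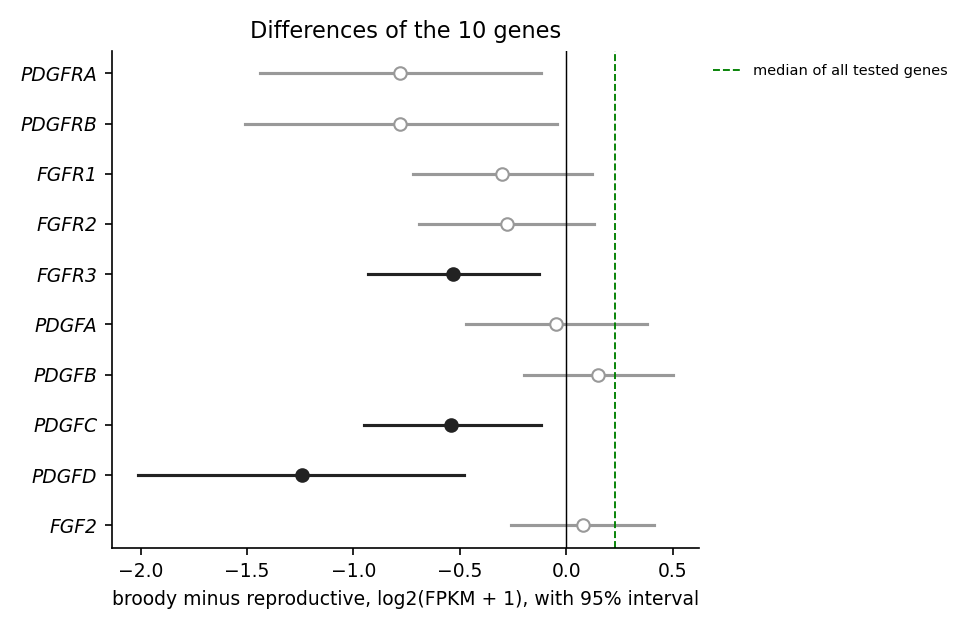
Broody minus reproductive difference in log2(FPKM + 1) of each gene with its 95% interval, filled where the adjusted p was under 0.05. The filled points are FGFR3 at -0.53, PDGFC at -0.54 and PDGFD at -1.24, and all 10 points lie below the dashed line, the median of all tested genes at 0.23.

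Ranked by mean FPKM, which is scaled to transcript length, PDGFC and PDGFRA headed both groups, and their ranges overlapped in each. FGFR2 came next, apart from PDGFRA in both groups. Its range overlapped that of FGFR3 in reproductive libraries but not in broody libraries, where FGFR3 overlapped FGF2. PDGFRB, PDGFD and FGF2 followed in the reproductive group, at 7.88, 7.09 and 6.84 FPKM, each overlapping the next. In the broody group PDGFD ranked 8 of 10, below PDGFA, overlapping FGFR1, and FGFR1 overlapped PDGFB. Within the broody group broody 3 was the highest library for 8 of 10 genes, and within the reproductive group reproductive 2 was the highest for 7 of 10.

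The 4 receptor ratios were compared to see whether receptors of one family changed unequally. They are ratios of FPKM + 1, which lie closer to 0 on the log2 scale than ratios of FPKM, most so for genes at low FPKM. The log2 ratio of PDGFRA to PDGFRB was 2.31 ± 0.53 in broody and 2.31 ± 0.31 in reproductive libraries (SD, n = 3; exact permutation p = 0.9, two-sided). The ratio of FGFR1 to FGFR2 was -2.36 ± 0.20 and -2.33 ± 0.10 (SD, n = 3; exact permutation p = 0.9). FGFR1 to FGFR3 was -1.80 ± 0.16 in broody and -2.04 ± 0.24 in reproductive libraries, and FGFR2 to FGFR3 was 0.55 ± 0.16 and 0.30 ± 0.14 (SD, n = 3; exact permutation p = 0.200 for both, 0.400 adjusted over the 4 ratios). All 4 ratios overlapped between the groups, and with 3 libraries against 3 the smallest p this test can give is 0.1, so unequal change of FGFR3 and the other FGF receptors was not shown.

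The split of each receptor into transcripts, as estimated by the authors' quantifier, added detail below the gene level. These values are descriptions with no test. The share of all transcripts whose groups do not overlap was not computed. Among tested genes it was 18.2% with broody libraries lower and 41.3% with broody libraries higher. XM_013172769.1 carried 66.9 to 83.5% of PDGFRA in the 6 libraries and overlapped between the groups. The minor PDGFRA transcript XM_013172770.1 stood at 5.22, 4.63 and 5.87 FPKM in broody 1 to 3 and at 8.55, 11.7 and 6.71 FPKM in reproductive 1 to 3, with no overlap. The main PDGFRB transcript, XM_013175967.1, likewise did not overlap, at 4.63, 1.32 and 5.72 FPKM in broody and 5.93, 6.72 and 7.86 FPKM in reproductive libraries, although the sum of the gene did. In broody 2 and reproductive 2 the second PDGFRB transcript held 39.9% and 24.5% of the gene, against 1.54 to 10.5% elsewhere.

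FGFR2 was spread over 4 transcripts, and 2 more were listed at 0 in every library. XM_013185822.1 stood at 1.27, 2.40 and 2.62 FPKM in broody 1 to 3 and at 3.82, 3.74 and 4.94 FPKM in reproductive 1 to 3. Its share of FGFR2 was 12.1 to 20.3% in the broody and 22.2 to 31.7% in the reproductive group, so neither level nor share overlapped. XM_013185824.1 made up 42.2% of FGFR2 in broody 3, at 6.55 FPKM, and 11.8 to 29.4% in the other libraries, at 1.40 to 3.09 FPKM. Of the 5 FGFR3 transcripts, XM_013178417.1 was lower in every broody library, at 2.04, 2.08 and 2.96 FPKM against 3.66, 3.74 and 5.13 FPKM. The FGFR3 transcript with the highest mean, XM_013178426.1, overlapped between the groups, at 1.90 to 4.22 FPKM in the broody and 2.86 to 7.26 FPKM in the reproductive group. Which splice form of the ligand-binding domain each transcript encodes is not annotated in the sources used here.

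**Figure D3:**
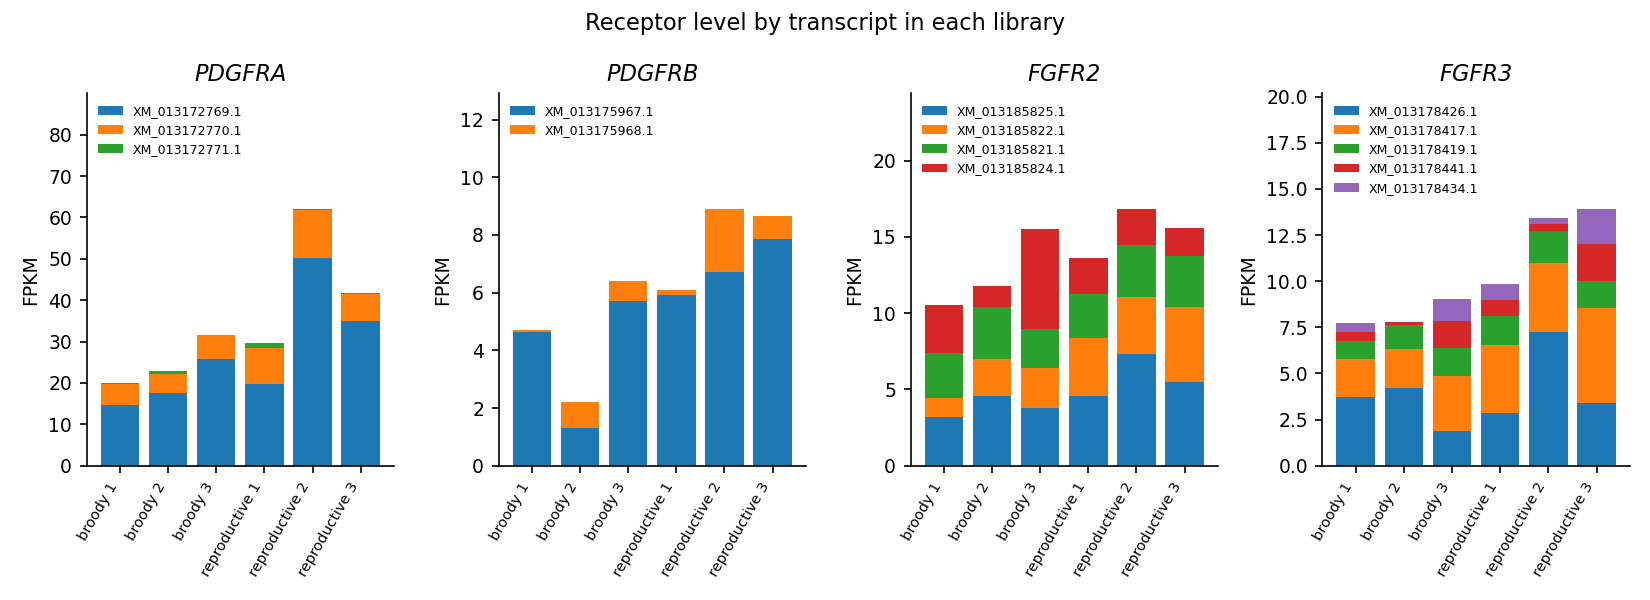
FPKM of PDGFRA, PDGFRB, FGFR2 and FGFR3 in each library, stacked by transcript as the deposited table lists them (2 FGFR2 transcripts listed at 0 are left out). The bars of broody 3 stand above those of broody 1 and 2 for all 4 receptors, and XM_013185824.1 takes 42.2% of FGFR2 in that library.

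Markers of smooth muscle, pericytes and stroma, the cells best known for PDGF receptors in mammals, were lower in broody libraries. Of 15 smooth muscle and pericyte genes listed, 10 were found and 9 tested. All 9 were called lower in broody libraries, against 12.0% of all tested genes, with a median difference of -2.98. KCNJ8, a potassium channel subunit of pericytes, fell by 1.69 and MYLK, the myosin light chain kinase, fell by 3.16. MYL9, a myosin light chain, fell by 3.17 and LMOD1, leiomodin, fell by 2.21. The list summed to 336 to 995 FPKM in the broody and to 3251 to 7161 FPKM in the reproductive group, an 8.38-fold difference of means, and none of its found genes was at 0. Of 15 fibroblast and stroma genes tested, 14 were lower and 0 higher, with a median of -1.74. Among these, THY1 passed the filter on low FPKM only through the reproductive libraries, and stood at 0.517 to 0.892 FPKM in the broody group. COL6A2 and COL6A1, chains of collagen VI, fell by 2.67 and 2.84, OGN, osteoglycin, fell by 2.39 and COL1A1, collagen I, fell by 2.60. Their sum was 479 to 1064 FPKM in the broody and 2633 to 3621 FPKM in the reproductive group.

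All 9 smooth muscle and pericyte genes and all 15 stroma genes tested had a lower difference than PDGFRA or PDGFRB, and 8 and 12 of them a lower difference than PDGFD. This order holds on the log2(FPKM + 1) scale, which shrinks PDGFRB and PDGFD, at low FPKM, more than markers at high FPKM. With a pseudocount of 0.1 PDGFRB was at -0.92 and PDGFD at -1.54, and the order was not recomputed. Broody 3 had the highest sum of both lists within its group, 995 and 1064 FPKM, and also of the theca and oocyte lists, 323 and 1295 FPKM. The endothelial and granulosa sums were highest in broody 2, at 344 and 573 FPKM. Broody 3 was the highest broody library for 8 of the 10 members, PDGFRA, PDGFRB and PDGFD among them. In bulk tissue, fewer cells of a type and less RNA per cell cannot be told apart, and the part of these markers in the results for PDGFRA, PDGFRB, PDGFC, PDGFD and FGFR3 was not tested.

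**Figure D4:**
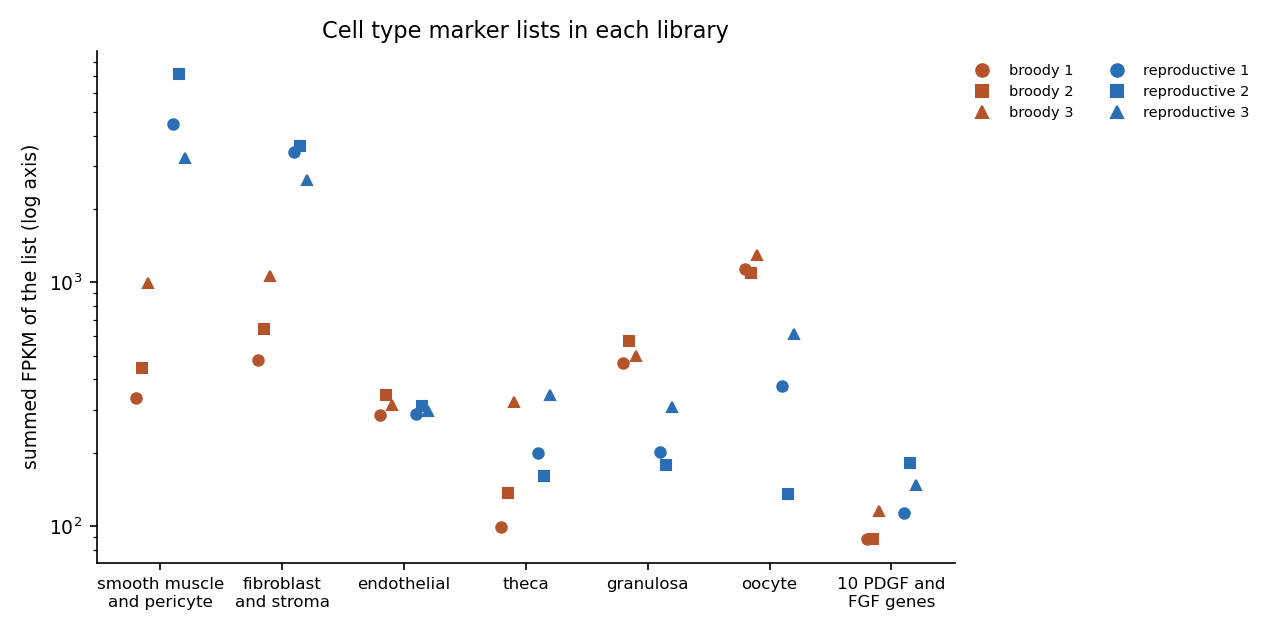
Summed FPKM on a log axis of 6 cell type marker lists and of the 10 PDGF and FGF genes in each library. The theca and granulosa lists were set by gene name and need not stand for those cells in the goose. The smooth muscle and stroma lists are lower in all broody libraries (336 to 995 and 479 to 1064 FPKM), the oocyte and granulosa lists are higher, and the endothelial and theca lists overlap. The endothelial sum without EMCN, added after seeing the data and not drawn, does not overlap (111 to 135 against 196 to 251 FPKM). EMCN, the gene left out, is the most abundant of the list and is higher in broody libraries.

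The marker lists of the other cell types did not share one direction. Their counts stand against 29.9% of all tested genes called higher and 12.0% called lower. Of 11 endothelial genes tested, 7 were lower and 2 higher (median -0.58), yet the list summed to 285 to 344 FPKM in the broody and 289 to 312 FPKM in the reproductive group. Without EMCN, a sum added after seeing the data, it was 111 to 135 FPKM in the broody and 196 to 251 FPKM in the reproductive group, with no overlap. VWF, von Willebrand factor, fell by 1.84, PECAM1 by 0.88 and the angiopoietin receptor TEK by 0.72. EMCN, endomucin, rose by 1.22, from 83.6 to 193 FPKM, and was the most abundant gene of the list. EGFL7 also rose, by 0.48, from 18.5 to 25.9 FPKM (adjusted p = 0.0448 by limma). Of 15 alternatives, EMCN was called under 13 and EGFL7 under 4. The theca and granulosa lists were set by gene name, with no cell type data of the goose to assign them. Genes of either list, among them those of steroid synthesis, may be made by the other cell type in the goose. Their counts and sums therefore describe the lists and need not stand for theca or granulosa cells. Of 7 theca genes tested, 1 was higher and 2 lower, and the list sums overlapped, at 99.0 to 323 FPKM in the broody and 160 to 344 FPKM in the reproductive group. NR5A1, which switches on steroid synthesis genes, rose by 1.15. COLEC11, a collectin, fell by 1.36, HSD3B1, which makes progesterone, fell by 1.16, and PTCH1, the hedgehog receptor, differed by -0.26. Granulosa genes were higher for 3 of 7 and lower for 1 (sums of 468 to 573 and 178 to 308 FPKM). AMH rose by 2.05, FOXL2 by 1.52 and WT1 by 0.65, and INHBA, an activin chain, fell by 0.73. AMH and FOXL2 were called under 13 of 15 alternatives, WT1 under 5 and INHBA under 4. INHA, the inhibin alpha chain and a defining granulosa gene, was at 0.0472 FPKM or less in every library. Oocyte genes were higher for 7 of 7 (sums of 1092 to 1295 and 135 to 616 FPKM), with WEE2 up by 1.38, BMP15 by 1.27, ZP2 by 2.04 and DAZL by 1.95. The 7 calls were 3 with no filter, 3 with the largest transcript only, 2 without broody 3, 3 without reproductive 1, 0 without broody 1 or broody 2, and 7 without reproductive 2. Of the oviduct list 1 gene was tested, TF, which did not pass (-1.54, adjusted p = 0.274 by limma).

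Other genes of both pathways were read from lists, with the share of called genes over all tested genes, 41.9%, as background (29.9% higher and 12.0% lower). Of 16 other FGF ligands found, 9 were tested, and 2 rose and 1 fell (median -0.24). FGF3 and FGF20 did not pass the filter on low FPKM, with means of 1.38 and 1.01 FPKM in the broody and 0.388 and 0.392 FPKM in the reproductive group. Every broody library was higher for both, and the other untested ligands overlapped between the groups. With no filter FGF3 was called higher and FGF20 was not. FGF16, a secreted FGF of the FGF9 subfamily, stood at 9.15, 6.55 and 7.65 FPKM in broody 1 to 3 and at 3.40, 3.20 and 4.45 FPKM in reproductive 1 to 3. It rose by 0.91 ± 0.18 (SE, adjusted p = 0.0172 by limma), with every broody library above every reproductive one. FGF5 rose by 0.72, from 0.779 to 1.93 FPKM, and passed the filter on low FPKM only through the broody libraries. FGF12, which stays inside the cell and binds sodium channels rather than receptors, fell by 0.75, from 2.87 to 1.32 FPKM. FGF8, an FGF made by the oocyte in mammals, had 20.7, 17 and 20 FPKM in broody and 9.42, 3.79 and 17.1 FPKM in reproductive libraries, a difference of 1.06 that did not pass (adjusted p = 0.0791 by limma). Reproductive 3 overlapped with broody 2, and without reproductive 3 FGF8 passed (adjusted p = 0.0159). FGF16 was called under 13 of 15 alternatives, and FGF5 and FGF12 under 12 of the 14 in which they were tested.

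Among other receptors and co-receptors, 3 of 9 tested fell and 1 rose (median -0.20). KL did not pass the filter on low FPKM, with means of 0.444 FPKM in the broody and 0.0820 FPKM in the reproductive group. Every broody library was higher, and with no filter KL was called higher. The other untested genes of this list overlapped between the groups. FGFBP1, a carrier that frees FGFs from the matrix, stood at 0.173, 0.269 and 0.204 FPKM in broody 1 to 3 and at 3.21, 2.94 and 3.30 FPKM in reproductive 1 to 3. It fell by 1.77 ± 0.14 (SE, adjusted p = 0.00786 by limma), and the groups lay far apart compared with the spread within each. FGFBP1 passed the filter on low FPKM only through the reproductive libraries. It was called under 12 of the 14 alternatives in which it was tested. FGFRL1, an FGF receptor without a kinase domain, fell by 0.90, from 5.43 to 2.46 FPKM. NRP1, neuropilin 1, a co-receptor of several growth factors, fell by 1.09, from 51.9 to 23.8 FPKM. FGFR4 went the other way, from 0.636 to 1.49 FPKM, a rise of 0.62 (adjusted p = 0.0381 by limma). It passed the filter only through the broody libraries and was called under 5 of the 14 alternatives in which it was tested. FGFRL1 and NRP1 were called under 13 of 15.

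Proteases that cut PDGF precursors were higher for 3 of 6 tested genes and lower for none (median 0.56), against 29.9% of all tested genes called higher. PLAU, urokinase, which activates PDGFD in mammals, stood at 166, 208 and 152 FPKM in broody 1 to 3 and at 60.1, 34.8 and 123 FPKM in reproductive 1 to 3. It rose by 1.43 ± 0.41 (SE, adjusted p = 0.0296 by limma), with no overlap between the groups. ST14, matriptase, which also cuts PDGFD in mammals, rose by 0.93, and FURIN, which cuts the A and B chains, rose by 0.75. PCSK7, a furin-like convertase, differed by 0.37 and did not pass (adjusted p = 0.0623 by limma). PLAT, tissue plasminogen activator, which cuts PDGFC in mammals, differed by -0.34, did not pass (adjusted p = 0.163 by limma) and was called lower with median-ratio scaling. PCSK6, a furin-like convertase that did not pass the filter on low FPKM, stood at 0.530, 0.269 and 0.565 FPKM in broody 1 to 3 and at 0.880, 1.05 and 1.27 FPKM in reproductive 1 to 3, every broody library lower. With no filter it was called lower, and FURIN alone was called higher. Of 15 alternatives, FURIN was called under 12, PLAU under 9 and ST14 under 5, and without reproductive 1 none of these genes was called.

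Of 22 heparan sulfate genes tested, 3 fell and 1 rose, and the median was -0.0063. SULF1, which trims sulfate groups and so weakens FGF binding in mammals, stood at 1.63, 2.57 and 3.22 FPKM in broody 1 to 3 and at 9.11, 14.3 and 7.60 FPKM in reproductive 1 to 3. It fell by 1.69 ± 0.27 (SE, adjusted p = 0.0132 by limma), without overlap. HSPG2, perlecan of basement membranes, fell by 1.25, and EXT1, a polymerase of the chains, fell by 0.53. GPC3, glypican 3, rose by 1.34, from 4.63 to 11.8 FPKM. SULF1 and HSPG2 were called under 13 of 15 alternatives, EXT1 under 8 and GPC3 under 6. With median-ratio scaling 7 of the list were lower and 0 higher, against 2076 lower and 1988 higher of all 11377 tested genes.

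Inside the cell, 5 of 23 adaptors and members of the RAS and ERK relay rose and none fell (median 0.13), against 29.9% of all tested genes called higher and their median of 0.23. SOS2, a RAS activator, rose by 0.75, MAP2K2, the kinase that phosphorylates ERK, by 0.85 and GAB1, a docking protein, by 0.55. SHC1, an adaptor, rose by 0.46, and FRS3, a docking protein of FGF receptors, by 0.55. This direction depended on scaling, as did that of all tested genes. Median-ratio scaling left SOS2 as the only rise and gave 3 falls, HRAS, CRK and NF1 (median -0.091). Over all 11377 tested genes it gave 1988 rises and 2076 falls (median 0.02). Quantile normalization gave 2 rises and 4 falls in the list (median -0.065), against 2198 and 1937 over all tested genes (median 0.04). A shift particular to this list was therefore not shown. With the replicate block 1 was higher. Of 15 alternatives, SOS2 was called under 11, MAP2K2 under 9, GAB1 under 8, SHC1 under 5 and FRS3 under 4. FRS2, a docking protein of FGF receptors, and PTPN11, a phosphatase of the relay, differed by -0.054 and 0.063 and did not pass. With the largest transcript only, FRS2 was called lower (adjusted p = 0.000844 by limma).

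Feedback inhibitors rose for 2 of 13 tested genes and fell for none (median 0.27), against the same 29.9% called higher and median of 0.23. DUSP4, a phosphatase of MAP kinases, stood at 22.0, 15.3 and 15.2 FPKM in broody 1 to 3 and at 8.49, 3.33 and 7.48 FPKM in reproductive 1 to 3, a rise of 1.37 ± 0.31 (SE, adjusted p = 0.0186 by limma). SPRY4, a Sprouty inhibitor of receptor signalling, rose by 0.60. SPRY1 and DUSP5 differed by 0.45 and 1.02 and did not pass (adjusted p = 0.0674 and 0.0783 by limma). DUSP4 was called under 13 of 15 alternatives and SPRY4 under 8. With median-ratio scaling 1 was higher and 1, SPRED1, lower (median 0.047), against 1988 higher and 2076 lower of all 11377 tested genes.

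Transcription factors regulated through ERK were split, with 1 of 13 higher and 3 lower (median -0.25). ETV5, an ETS factor that FGF signalling induces in several vertebrate tissues, stood at 13.9, 11.4 and 13.2 FPKM in broody 1 to 3 and at 6.34, 4.31 and 6.84 FPKM in reproductive 1 to 3. It rose by 1.03 ± 0.19 (SE, adjusted p = 0.0160 by limma), and the groups were well separated. FOSL2, an AP-1 factor, fell by 0.63, EGR1, an immediate early zinc finger factor, by 0.73 and ELK3, an ETS factor, by 0.79. ETV5 was called under 13 of 15 alternatives, FOSL2 under 11, and EGR1 and ELK3 under 9 each. Without reproductive 1, 2 were higher, ETV5 and ETV4, and 0 lower, and with the replicate block ETV5 was higher and ELK3 lower. With median-ratio scaling 6 of the list were lower and 1, ETV5, higher, against 2076 lower and 1988 higher of all 11377 tested genes.

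**Figure D5:**
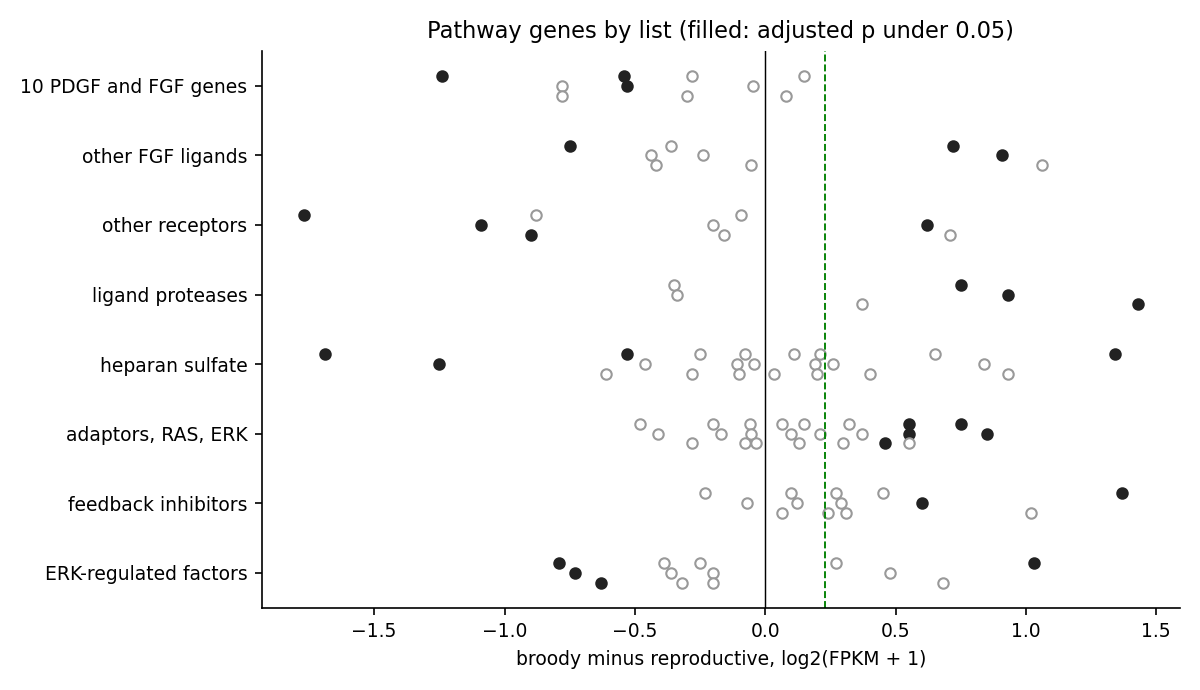
Broody minus reproductive difference in log2(FPKM + 1) of each tested gene, by list, filled where the adjusted p was under 0.05, with the dashed line at the median of all tested genes (0.23). The filled points of the 10 PDGF and FGF genes lie on the lower side, those of the ligand proteases, the adaptors and the feedback inhibitors on the higher side, and those of the other lists on both.

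Likeness of pattern was measured as the root mean square distance between centred log2(FPKM + 1) values over the 6 libraries, among 10273 other named genes. The nearest to PDGFRA were CAPN5, a calpain protease, at 0.0561, OSBPL5, a sterol-binding protein, at 0.0656 and GPR20, an orphan receptor, at 0.0955. Nearest to PDGFRB were EPHA3, an ephrin receptor, at 0.113, MFGE8, a secreted adhesion protein, at 0.148 and MAP2K5, a MAP kinase kinase, at 0.153. FGFR1 lay nearest to FAT3, a large cadherin, and EPHB2, an ephrin receptor, both at 0.0467, and to DDR2, a collagen receptor, at 0.0472. FGFR2 lay nearest to HGF, hepatocyte growth factor, at 0.0399, then RSF1, a chromatin remodelling factor, at 0.0476 and DNALI1, a dynein light chain, at 0.0478. FGFR3 lay nearest to LRCH2 at 0.0358, P2RY13, a purine receptor, at 0.0516 and ACVR2A, an activin receptor, at 0.0604. These 3 fell by 0.47, 0.59 and 0.50 beside the 0.53 of FGFR3. A similar fall follows from the choice, since the distance takes in the difference between the groups. A small distance at low FPKM partly reflects the small range of such genes.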

How the data were processed

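The 10 members and all gene lists were chosen with earlier results of these data known. The deposited table holds FPKM per transcript (33089 transcripts), computed by the authors with HISAT2 and StringTie, per the submitters' processing notes; the sources used here name no version, genome build, annotation or strand setting, so reads of overlapping antisense genes cannot be told apart. FPKM totals per library were 319866 to 346625. FPKM hold no counts, the depth of the libraries is not known, and no count test was run. Here transcripts were summed per gene identifier, and 6611 genes were named by the deposited table and 5742 by RefSeq's table for the Taihu goose assembly (names only). Genes with FPKM of at least 1 in 3 or more libraries (11377) were fitted as log2(FPKM + 1) with limma 3.58.1 in R 4.3.3. The fit used eBayes with trend, no covariate, two-sided p and Benjamini-Hochberg over all genes. It was also run on simulated data, and that outcome is not given here. Receptor ratios, taken on FPKM + 1, had an exact permutation test. Named genes were the members, up to 4 genes of each list with the smallest p, all called genes of lists with 5 or fewer, and 3 nearest genes per receptor. LYZ, INHA, GDF9, PLAT, PCSK6, ETV4, SPRED1, THY1 and EGFL7 were named where the rule does not reach, after their values were seen. So were FRS2, PTPN11, HRAS, CRK, NF1, FGF3, FGF20 and KL. Alternatives covered pseudocount, filter, scaling, trend, replicate block, largest transcript and each library left out.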

Additional observations from a re-analysis of the deposited data

How the results depend on the processing

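The number of members called lower, 3 of 10, was 1 with no filter, 5 with median-ratio scaling, 5 with quantile normalization, 1 with the replicate block and 1 with the largest transcript only, and ranged from 0 to 4 with 1 library left out. It was 0 without broody 1 and without broody 2, where a single gene of all tested passed in the whole table (4571 and 4686 genes had an unadjusted p under 0.05), and 1 without reproductive 2 and without reproductive 3. PDGFD was called under 13 of 15 alternatives, FGFR3 under 7 and PDGFC under 6, and all 3 kept their negative sign in all 15. Same-numbered libraries correlated at 0.110, -0.158 and -0.203 in their deviations from the group means, and broody 3 with reproductive 2 at 0.291. With 3 libraries a group these values depend on each other. They cannot settle whether the replicate numbers pair the libraries. The block left 2225 genes higher and 948 lower of all tested, against 3400 and 1366. Median-ratio scaling gave 1988 and 2076, and quantile normalization 2198 and 1937. The sign of FGF2 turned with median-ratio scaling (-0.13) and quantile normalization (-0.072), and that of PDGFA ranged from -0.16 to 0.11 with 1 library left out. The difference in the PDGFRA to PDGFRB ratio, -0.0032, was 0.12 with a pseudocount of 0.1 and 0.045 with the largest transcript only, and ranged from -0.30 to 0.21 with 1 library left out. For FGFR1 to FGFR2, -0.024, it was 0.17 with the largest transcript only and ranged from -0.13 to 0.065. For FGFR2 to FGFR3, 0.26, it was -0.15 with the largest transcript only. The cause was not tested.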
